A study of Homo sapiens with 16 samples.

Results

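Transcripts of the insulin-like growth factor (IGF) axis and of the hepatocyte growth factor pair HGF and MET were followed in human kidney organoids by culture day, by TNFα treatment and by cell class. The 9 genes are the ligands IGF1 and IGF2, the receptor IGF1R, the binding proteins IGFBP3, IGFBP4, IGFBP5 and IGFBP7, the ligand HGF and its receptor MET. They were taken by name from a list of growth factors, binding proteins and receptors, and all 9 were listed among the 20121 genes of set 1, the 27650 genes of set 2, the 21093 genes of the TNFα set and the 36601 features of the single-cell matrices. The members were chosen by name with the culture day values in view: HGF was selected on its rise from D21 to D29, among the largest of all genes, so the day values of the 9 genes are given as a description. The calls of the day fit are counted only beside the share over all genes and support nothing. The choice of members did not rest on the TNFα contrast, which is tested, although earlier results of these data were known.

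All organoids were grown from a single human embryonic stem cell line, UM77-2, so that every group shares the same genetic background and none is a clone with an edited gene. Set 1 held isolated spheroids of culture days 21, 25 and 29 (D21, D25 and D29) with 1 bulk RNA library per day. Set 2 held 2 libraries for each of the same days from spheroids refed daily in the last part of culture, and nothing in the labels says that these pairs came from separate differentiations, so their spread may be technical. The TNFα set held isolated spheroids given 5 ng/ml TNFα or vehicle control (VC, buffered saline) for 24 h or 48 h from day 23, with 1 library per treatment and time. The labels put the collection of all 4 at day 25, which does not match 24 h from day 23, so the start of the shorter treatment is not clear. Single-cell RNA libraries were made from 1 control (Ctrl) and 1 TNFα-treated preparation of whole organoid wells after 24 h, at day 24. Bulk libraries held between 19073609 and 59246286 reads, and the 3 bulk tables were normalized separately, so levels are compared within a table only. Bulk values are on the deposited scale, log2(CPM + 1), where CPM stands for reads scaled to a common library size.

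IGF1 and IGF2 are secreted peptides that signal through the tyrosine kinase receptor IGF1R and drive growth and survival in many tissues. Binding proteins hold IGFs outside the cell, and proteases such as pappalysin (PAPPA) cut a binding protein to free its ligand. HGF is secreted as an inactive precursor, typically by mesenchymal cells, is cut by serine proteases and acts on the receptor MET of neighbouring epithelium, where in the kidney it is known for tubule growth and repair.

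The upstream sequences of HGF and IGFBP4 are shown because these were the 2 members that passed the test with TNFα, a signal that acts in part through NF-κB. Both come from RefSeq on GRCh38.p14 and lie upstream of the RefSeq transcript start, and 7 of the 9 members had an entry. The HGF window nevertheless lies inside the wider GENCODE span of the gene, since other GENCODE transcripts start further upstream. Only its longest stretch outside annotated exons is shown, and the other 96 bases are left out. The HGF stretch is chr7:81770137-81770290 on the minus strand, 154 bases of the 250-base window chr7:81770048-81770297 that lie outside annotated exons. The IGFBP4 stretch is the whole 250-base window chr17:40443200-40443449 on the plus strand, just before the gene. Capitals mark matches to GGGNNNNNCC, a loose NF-κB motif, and to TATAAA, the TATA box.
HGF: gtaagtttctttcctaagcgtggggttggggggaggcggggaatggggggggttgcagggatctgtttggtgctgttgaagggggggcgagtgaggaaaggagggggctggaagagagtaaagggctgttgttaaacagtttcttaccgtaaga
IGFBP4: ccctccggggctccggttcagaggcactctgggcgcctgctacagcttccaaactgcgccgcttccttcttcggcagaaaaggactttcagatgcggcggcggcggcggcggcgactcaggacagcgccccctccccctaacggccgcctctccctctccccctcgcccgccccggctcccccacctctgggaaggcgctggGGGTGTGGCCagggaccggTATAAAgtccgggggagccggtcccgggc

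The whole 250-base HGF window had a GC content of 50% and held no match, on either strand, to GGGNNNNNCC, to TGANTCA (the AP-1 motif) or to TATAAA. Sequence before the other GENCODE starts of HGF was not searched. The IGFBP4 window had a GC content of 71.6% and held 1 match to GGGNNNNNCC, whose first base lies 48 bases before the start, and 1 match to TATAAA that begins 29 bases before it. The 2 matches do not overlap. Among the 35116 RefSeq windows of the same length, 54.4% held GGGNNNNNCC, 6.6% held TGANTCA and 10.7% held TATAAA, so the NF-κB letters were common. Members that did not pass the test with TNFα held them too. IGFBP5 had 5 matches to GGGNNNNNCC, IGF1R and IGFBP3 had 3 each and MET had 1, while IGF1 had none. These matches are descriptions of letters in a window and not of binding.

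HGF (chr7:81699010-81770438, minus strand, GRCh38) went from barely detected at D21 to a moderate level at D29, the largest difference between days among the 9 members. In set 2 its values were 0.85 and 0.43 at D21, 3.0 and 3.12 at D25, and 4.46 and 4.70 at D29. The D21 values rest on 17 and 9 reads and the D29 values on 636 and 689. The libraries of each day stood apart from those of the other days without overlap. The mean was 0.64 ± 0.30 (SD, n = 2) at D21 and 4.58 ± 0.17 at D29, a difference of 3.94 (SE 0.18) on the log2 scale or 41.0-fold in CPM. Adding 1 to CPM compresses low values, and edgeR on the recovered reads gave 5.44 on the log2 scale in place of 3.94. The step from D21 to D25 was 2.42 and that from D25 to D29 was 1.52. In set 1, HGF started higher within its own table, at 3.10, and reached 4.59 at D25 and 4.77 at D29, a 3.47-fold difference in CPM, most of it before D25. Among the 2228 genes called higher in set 2 and also higher in set 1, HGF ranked 5th by its set 2 difference, just under THBS2, a matricellular protein of connective tissue, at 4.13 and just over INHBA, the activin A subunit, at 3.93.

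MET (chr7:116672196-116798377, plus strand), the HGF receptor, was the reverse of its ligand in direction and changed little. Its set 2 values were 6.56 and 6.45 at D21, 6.29 and 6.16 at D25, and 6.20 and 6.06 at D29, a difference of -0.37 (SE 0.08) between the last day and the first. The D25 and D29 libraries overlapped, and in set 1 the last library was 0.20 below the first on the same scale.

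IGF1 (chr12:102395874-102481744, minus strand) was the second steepest member. In set 2 it read 2.86 and 2.79 at D21, 4.53 and 4.34 at D25, and 5.80 and 5.64 at D29. Both steps were of similar size, and the difference over the whole interval was 2.90 (SE 0.11), or 8.51-fold in CPM. In set 1 it read 4.14, 5.13 and 5.71, a 3.10-fold difference. The other ligand, IGF2 (chr11:2129112-2158391, minus strand), read 10.62 and 10.78 at D21, 10.66 and 10.81 at D25, and 10.47 and 10.52 at D29 in set 2. That was a difference of -0.21 (SE 0.12), and the set 1 difference was 0.10 in the opposite direction. IGF1R (chr15:98648539-98964530, plus strand) read 8.83 and 8.82 at D21, 8.72 and 8.75 at D25, and 8.47 and 8.41 at D29, a difference of -0.38 (SE 0.07), beside -0.05 in set 1.

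The 4 binding proteins did not move together. IGFBP5 (chr2:216672105-216695549, minus strand), a binding protein that attaches to extracellular matrix, had set 2 values of 9.19 and 8.88 at D21, 10.34 and 10.37 at D25, and 10.83 and 11.14 at D29. It was 1.95 (SE 0.15) higher on the last day than on the first, or 3.86-fold in CPM, and 1.45 higher in set 1. IGFBP3 (chr7:45912245-45921874, minus strand), the main IGF carrier of serum, read 7.33 and 6.97 at D21, 8.23 and 8.28 at D25, and 8.02 and 8.09 at D29. Its whole difference of 0.91 (SE 0.11) came before D25, after which it was 0.20 lower on the log2 scale. In set 1 the 3 libraries lay between 8.09 and 8.26, so that the early difference of set 2 was not seen there.

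IGFBP7 (chr4:57030773-57110385, minus strand), a matrix protein that binds IGFs weakly, read 8.12 and 7.85 at D21, 8.49 and 8.41 at D25, and 8.60 and 8.38 at D29, a difference of 0.51 (SE 0.11), close to the 0.48 of set 1. IGFBP4 (chr17:40443450-40457725, plus strand), which restrains IGF action and is the classic target of PAPPA, went the other way in set 2. It read 8.95 and 9.29 at D21, 8.49 and 8.65 at D25, and 8.28 and 8.18 at D29, a difference of -0.89 (SE 0.12). In set 1 the D29 library was only 0.07 below the D21 library on the log2 scale.

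**Figure D1:**
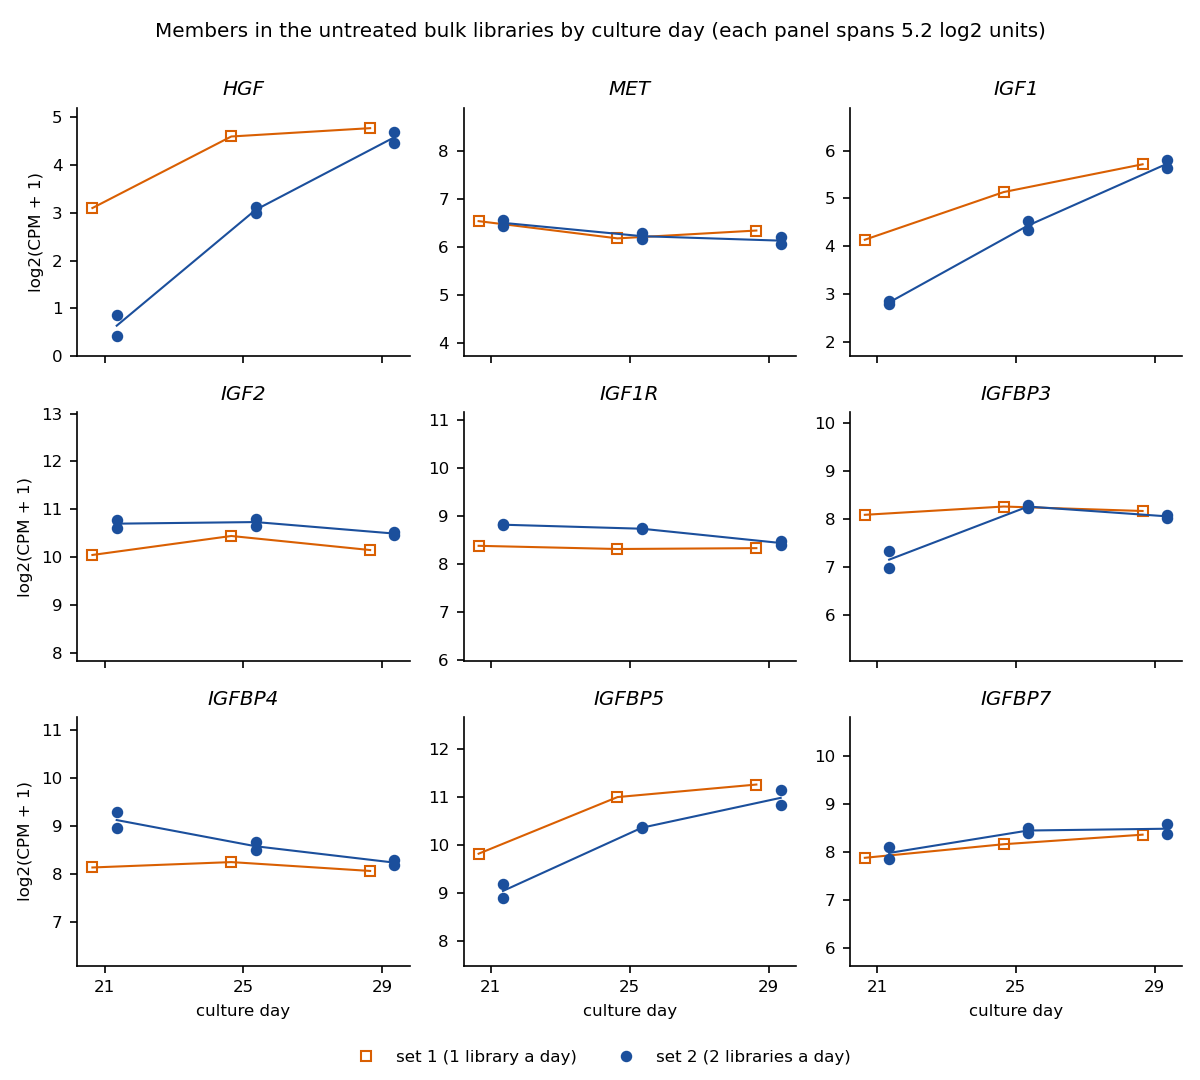
Log2(CPM + 1) of the 9 members (vertical axis) against culture day (horizontal axis), with set 1 as squares and set 2 as circles, 1 point per library; every panel spans the same height on the log2 scale, and the tables were normalized separately. HGF runs from 0.43 to 4.70 in set 2 and IGF1 from 2.79 to 5.80, while IGF2 and MET stay almost level.

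By the limma fit of set 2, 5 members (HGF, IGF1, IGFBP5, IGFBP3 and IGFBP7) were called higher at D29 than at D21 and 3 (IGFBP4, IGF1R and MET) lower, where 10.0% of all genes were called higher and 8.33% lower. This contrast chose HGF, so nothing is read from that count. Without set 2 D21 replicate 1 or replicate 2, 1 member (IGFBP4) was called lower in place of 3. The call of IGFBP7 was also lost without D21 replicate 2 and that of MET without D29 replicate 2. With the median of every library set equal before the fit, 2408 genes were higher and 4667 lower in place of 2778 and 2303, and the same 8 members were called. Among the 27650 differences, HGF ranked 5th from the top, IGF1 35th and IGFBP5 191st.

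Marker levels of several cell types also differed between the culture days. The summed level of 8 stromal collagen, proteoglycan and receptor genes (COL1A1, COL1A2, COL3A1, DCN, LUM, PDGFRA, POSTN and TWIST1, all listed) was 4222 and 4819 CPM in the D21 libraries of set 2, 10952 and 11318 at D25, and 14116 and 17618 at D29. In set 1 it went from 7195 to 18965 CPM. Of these 8 genes 6 rose and 0 fell in set 2. The summed level of 8 podocyte markers lay between 11225 and 11853 CPM at D21 and between 3615 and 7667 CPM at D29 in set 2, with 6 of 8 lower, and 5 of 8 proximal tubule markers fell. Markers of other cell types differed as well. At D29, 7 of 8 mural, 7 of 8 neuronal, 6 of 7 listed muscle and 5 of 8 endothelial markers were higher and 1 endothelial marker was lower. The endothelial sum nevertheless fell in set 2, from 135 and 157 CPM at D21 to 97.2 and 88.4 CPM at D29. In set 1 that sum went from 132 to 79.0 CPM. Neuronal markers summed to 206 and 217 CPM at D21 and to 468 and 771 CPM at D29 in set 2, but to 902 and 669 CPM in set 1. In bulk RNA fewer cells of a type and less RNA per cell cannot be told apart, and the part of the marker shifts in the members' values was not tested. Of 8 leukocyte markers, 5 (PTPRC, CD68, LYZ, CD3E and TYROBP) were not listed in any bulk table.

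Likeness of pattern was measured as the root mean square (RMS) difference on the log2 scale over the 13 bulk libraries, after each gene was centred within each table, among 16217 genes. The genes nearest HGF were LGALS1, COL12A1 and NFIX, at distances of 0.28, 0.28 and 0.35, beside an RMS of 1.23 of HGF about its own mean. IGF1 was nearest to PLS3, MIR100HG and PRSS12 at 0.17 to 0.20, and IGFBP5 to MMP2, CACNA1G and HIC1 at 0.08 to 0.10. IGFBP3 was nearest to PLCL1, EDNRB and KCNMB2, and IGFBP4 to GRTP1, UBTD1 and KCTD19. For the members that varied least, the nearest genes varied as little: TMUB1, TSC22D4 and SURF6 for IGF2, SLC31A1, MCCC2 and AACS for IGF1R, PCDHB12, TSBP1-AS1 and ITPRIPL2 for IGFBP7, and EFCAB10-AS1, PIGP and POLR1HASP for MET. Within the 9 members, the nearest to HGF was IGF1 at a distance of 0.55, which placed it 34th among all genes. These distances share libraries and tables and carry no test.

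Around the 9 members stands a wider set of 30 pathway genes, 19 for the IGF axis and 11 for HGF activation and signalling. They were listed with earlier results of these data known, so their counts are not independent support. All 30 were listed in set 2, where 6 rose, 10 fell and 14 did not pass the test between D21 and D29, with a median change of -0.18 beside -0.02 over all genes, of which 10.0% rose and 8.33% fell. The IGF genes gave 4 higher and 6 lower of 19, and the HGF genes 2 higher and 4 lower of 11. Without set 2 D21 replicate 1 the calls were 2 higher and 4 lower, without D21 replicate 2 they were 1 and 5, and without D29 replicate 2 they were 3 and 6. Leaving out D25 replicate 1 or 2 gave 4 higher and 7 lower each. The counts over all genes also shrank, to 1571 higher and 964 lower without D21 replicate 1, 1398 and 960 without D21 replicate 2, and 1891 and 1443 without D29 replicate 2.

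The largest fall was that of PAPPA, the protease that cuts IGFBP4. It read 7.33 and 7.41 at D21, 6.73 and 6.58 at D25, and 6.03 and 5.59 at D29 in set 2, and 6.58, 5.54 and 5.49 in set 1. Its change in set 2 was -1.56 (SE 0.14, limma adjusted p = 2.94e-04). STC2, a stanniocalcin that inhibits PAPPA, fell by 1.18 on the log2 scale (SE 0.10, limma adjusted p = 2.60e-04), from 5.12 and 5.13 to 3.91 and 3.98. Thus the transcripts of IGFBP4, of its protease and of an inhibitor of that protease were all lower at D29 than at D21 in set 2. PAPPA2, a related protease for IGFBP3 and IGFBP5, rose by 0.62 (SE 0.17, limma adjusted p = 0.0411), a call that was lost in 5 of the 6 fits that left out a library.

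Inside the cell, IRS1, the adaptor that carries the IGF1R signal, rose by 0.95 (SE 0.07, limma adjusted p = 1.46e-04) and was the gene of the 6 whose call was kept in every fit that left out a library. The related adaptor IRS4 rose by 0.74 (SE 0.17, limma adjusted p = 0.0177), and the binding protein IGFBP6, which prefers IGF2, rose by 0.99 (SE 0.17, limma adjusted p = 5.95e-03). On the HGF side, the membrane protease ST14, which activates HGF, rose by 0.46 (SE 0.10, limma adjusted p = 0.0191). Of the 6 fits that left out a library, the call of IRS4 was lost in 4, that of ST14 in 3 and that of IGFBP6 in 1, without D21 replicate 2. The secreted HGF activator HGFAC fell by 0.66 on the log2 scale (SE 0.16, limma adjusted p = 0.0271), a call lost in each of those fits but the one without D29 replicate 2, and SPINT2, an inhibitor of these proteases, fell by 0.81 (SE 0.12, limma adjusted p = 2.70e-03). MST1, a ligand related to HGF, fell by 0.70 (SE 0.12, limma adjusted p = 4.84e-03).

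The TNFα set was first checked against its labels. All 6 genes known to respond to TNFα (NFKBIA, TNFAIP3, CXCL10, CCL2, ICAM1 and VCAM1) rose, with CCL2 4.07, ICAM1 4.25 and VCAM1 4.14 higher than in VC on the log2 scale. HGF rose with TNFα and IGFBP4 fell, and these were the members that passed the test. The fit had time and treatment as terms, so the 24 h and 48 h libraries stood in for replicates. The spread of a gene came from how its TNFα difference varied between 24 h and 48 h, pooled with the spread of other genes. The p-values therefore do not measure the spread between replicate organoids. Over all genes 8.42% were called higher and 10.8% lower, and among the members 1 was called higher, 1 lower and 7 not, with a median change of -0.09 beside -0.03 over all genes.

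HGF read 1.74 in VC and 3.23 with TNFα at 24 h, on 126 and 441 reads, and 2.11 and 3.49 at 48 h, on 165 and 608 reads. Both treated libraries lay above both vehicle libraries. The ratio in CPM was 3.61 at 24 h and 3.10 at 48 h, and the treatment term was 1.44 (SE 0.12, limma adjusted p = 7.29e-08), rank 107 among 21093 genes. IGFBP4 read 8.72 in VC and 8.33 with TNFα at 24 h, and 8.93 and 8.44 at 48 h. The ratio was 0.764 at 24 h and 0.714 at 48 h, and the term was -0.44 (SE 0.06, limma adjusted p = 4.64e-05). Both genes kept their calls in all 6 alternative fits, although those differed over all genes: limma gave 1776 higher and 2285 lower, and DESeq2 gave 1198 and 970.

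MET was 0.36 below VC on the log2 scale at 24 h and 0.07 below at 48 h, a term of -0.21 (SE 0.07, limma adjusted p = 0.052). It did not pass the test as fitted but did with median centring (adjusted p = 0.0207), with a filter on low genes (adjusted p = 0.0374) and with log2(CPM + 0.1) (adjusted p = 0.0324). IGF1 read 3.44 and 3.39 at 24 h and 3.75 and 3.63 at 48 h in VC and TNFα, a term of -0.09 (SE 0.10, limma adjusted p = 0.64). IGFBP5 gave -0.15 (SE 0.06, limma adjusted p = 0.119) and IGFBP3 -0.13 (SE 0.06, limma adjusted p = 0.179). IGFBP7 gave 0.13 (SE 0.07, limma adjusted p = 0.192), IGF1R 0.11 (SE 0.06, limma adjusted p = 0.262) and IGF2 -0.0024 (SE 0.07, limma adjusted p = 0.988).

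**Figure D2:**
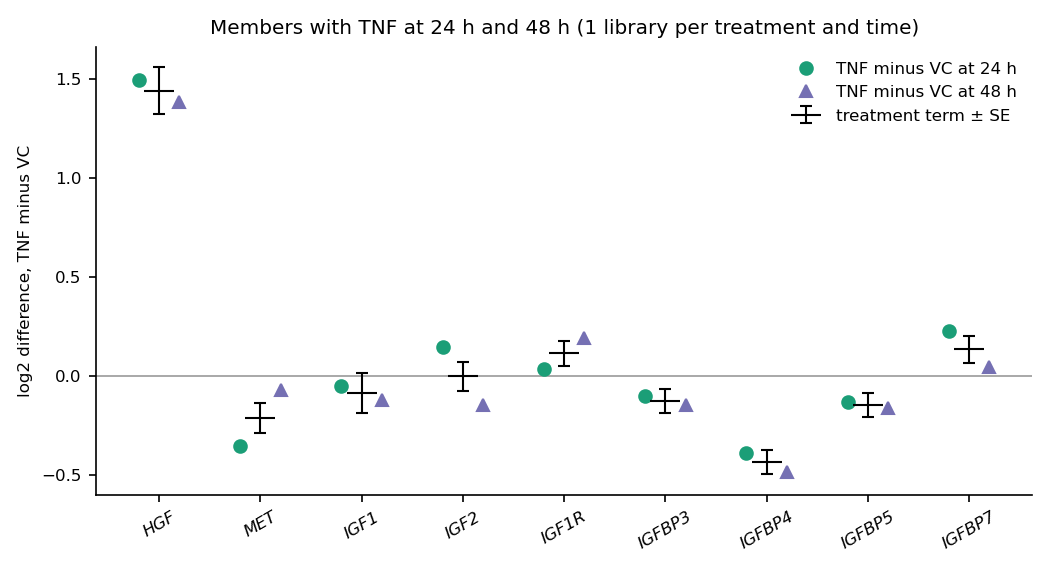
TNFα minus VC for each member on the log2(CPM + 1) scale, with the 24 h difference as a circle, the 48 h difference as a triangle and the treatment term of the limma fit with a bar of its standard error. HGF stands at 1.5 and 1.39 and IGFBP4 at -0.39 and -0.48, while the other 7 members lie between -0.36 and 0.22.

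Stromal markers summed to 6570 CPM in VC and 8213 CPM with TNFα at 24 h, and to 8084 and 8572 CPM at 48 h, with 3 of 8 genes higher and 1 lower. Podocyte markers summed to 7045 and 4299 CPM at 24 h and to 6541 and 3187 CPM at 48 h, and all 8 fell. Of 8 proximal tubule markers 7 fell. Of 8 mural markers 6 rose and 0 fell, with sums of 451 and 533 CPM at 24 h and 488 and 591 CPM at 48 h. Of 8 glial markers 6 rose and 1 fell, while their sum went from 200 to 141 CPM at 24 h and from 206 to 201 CPM at 48 h. Of 8 endothelial markers 4 fell and 0 rose. HGF and IGFBP4 moved beside these sums, and the part of cell makeup in either result was not tested.

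Of the 30 wider genes, 8 rose, 4 fell and 18 did not pass the test with TNFα, with a median change of 0.10, where 8.42% of all genes rose and 10.8% fell. The IGF genes gave 5 higher and 2 lower of 19, and the HGF genes 3 higher and 2 lower of 11. Without the time term the counts were 3 higher and 2 lower, where those over all genes were 637 and 673. The calls of IRS1, PLAU, ST14, STC1, STC2, INSR and MST1 were then lost, and that of STC2 had a limma adjusted p of 0.068.

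PAPPA read 5.86 in VC and 6.30 with TNFα at 24 h, and 5.70 and 6.22 at 48 h, a rise of 0.48 (SE 0.07, limma adjusted p = 4.50e-05). Its inhibitor STC2 read 3.73 and 4.36 at 24 h and 4.03 and 4.74 at 48 h, a rise of 0.67 (SE 0.09, limma adjusted p = 3.01e-05). With TNFα the PAPPA transcript rose while that of IGFBP4, whose protein PAPPA cuts, fell, and both calls were kept without the time term. The transcript of the inhibitor STC2 was also higher at both times, but its call was lost without that term. No protein was examined here, and a link between these transcripts was not tested. The largest rise was that of IGFALS, which stabilises IGF complexes in serum, at 0.72 (SE 0.11, limma adjusted p = 1.32e-04). Among the HGF genes, the plasminogen activator PLAU rose by 0.54 (SE 0.10, limma adjusted p = 4.58e-04) and the protease inhibitor SPINT1 by 0.47 (SE 0.06, limma adjusted p = 3.22e-05). The remaining 3 that rose, named here to complete the count and not by size, were STC1, ST14 and IRS1.

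IGFBPL1, an IGFBP-like secreted protein, fell by 0.50 on the log2 scale (SE 0.08, limma adjusted p = 1.66e-04), and MST1 fell by 0.48 (SE 0.06, limma adjusted p = 2.72e-05). HPN, the protease hepsin that can activate HGF, fell by 0.37 (SE 0.06, limma adjusted p = 3.06e-04), and the insulin receptor INSR fell by 0.26 (SE 0.07, limma adjusted p = 0.0157). No listed gene stood at 0 in every library, and the lowest, IGFBP1, had between 1 and 26 reads per library where it was listed.

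**Figure D3:**
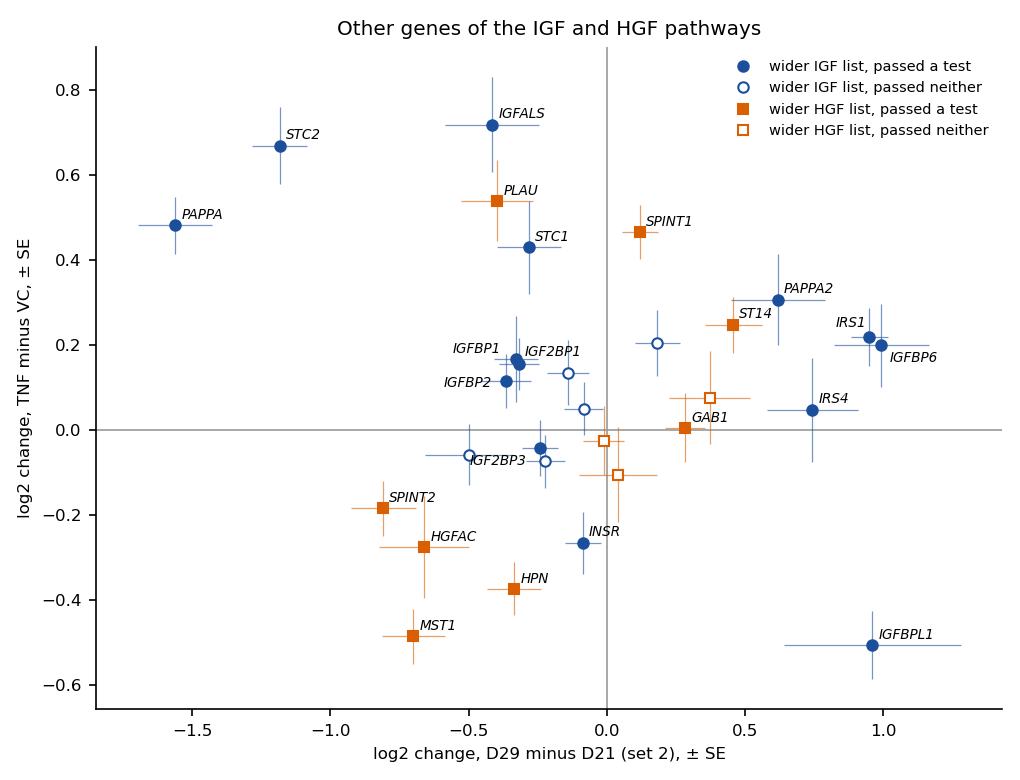
The wider pathway genes by their log2 change from D21 to D29 in set 2 (horizontal axis) and with TNFα (vertical axis), each with standard error bars and filled where a test was passed. PAPPA and STC2 lie at the upper left, at -1.56 and 0.48 and at -1.18 and 0.67.

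Single cells show in which classes the transcripts lay. The Ctrl library held 12494 barcodes, of which 11906 had over 500 genes, with a median of 6359 UMIs (unique molecular identifiers, here counted transcripts). The TNFα library held 23160 cells with a median of 2599 UMIs, and none had fewer than 1514. The libraries shared 82 barcodes. Cells were grouped without the members and the wider genes, and a cluster was named only from separate markers. The level of a gene in a class is its UMI total there, scaled to the UMIs of all genes in that class (CPM). With 1 library per condition no test was possible, and parentheses hold the exact 95% Poisson limits, which reflect counting error alone. Values are first those of the Ctrl library, and orders of classes are those among the named classes.

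HGF and MET were highest in different classes. In the 2576 stromal-like cells HGF reached 65.4 CPM (61.2 to 69.8) on 912 UMIs, which was 68.9% of its UMIs in the library. Proliferating-like cells followed among the named classes at 22.8 CPM (19.4 to 26.5), where stromal markers stood at 40.1% of their level in stromal-like cells. An unnamed cluster led by MT-ND6, LRRC75A and VCAM1 had 30.9 CPM (16.4 to 52.8) on 13 UMIs. Coelomic epithelium-like cells had 4.91 CPM, and podocyte-like, neuronal-like, glial-like, proximal tubule-like and muscle-like cells had 2.40, 2.29, 1.91, 1.17 and 1.04 CPM, with overlapping intervals between neighbours. HGF in proximal tubule-like cells was 1.80% of its stromal level, below the 4.70% of the summed stromal markers there. Whether those low values are background was not tested. MET reached 50.1 CPM (47.0 to 53.4) in the 1268 proximal tubule-like cells, 55.8% of its UMIs, and 1.86 CPM (1.22 to 2.73) in stromal-like cells, the lowest class. Proliferating-like cells had 23.3 CPM and muscle-like cells 12.5 CPM of MET, and an unnamed cluster led by SPOCK3, CYP26A1 and MYF6 had 43.0 CPM (38 to 48.5).

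IGF1 followed the HGF order at the top, with 398 CPM (388 to 409) in stromal-like cells, 115 in proliferating-like and 82.7 in coelomic epithelium-like cells. Neuronal-like, muscle-like, podocyte-like, glial-like and proximal tubule-like cells lay between 13.5 and 20.5 CPM, and neighbours in that order overlapped. IGF1 was at 5.15%, 4.45%, 4.29% and 4.255% of its stromal level in neuronal-like, muscle-like, podocyte-like and glial-like cells. The summed stromal markers were higher there, at 5.97%, 7.83%, 16.0% and 15.5% of theirs. Whether these low IGF1 values are background was not tested. IGF2 was more spread, with 78.7 CPM (74.2 to 83.5) in stromal-like cells, 59.0 in muscle-like and 31.5 in podocyte-like cells, and 5.08 in glial-like cells. The receptor IGF1R ranged less than the ligands, from 32.4 CPM (28.9 to 36.2) in glial-like to 58.2 CPM (54.2 to 62.4) in neuronal-like cells. Every class overlapped the next in order, but the highest and the lowest class did not overlap.

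The binding proteins were not all highest in the same class. IGFBP5 and IGFBP3 were highest in stromal-like cells, at 3104 CPM (3075 to 3133) and 328 CPM (319 to 338). IGFBP5 was also high in the unnamed cluster led by SPOCK3, at 2128 CPM. Proliferating-like cells had 1325 CPM and glial-like cells 1203 CPM of it, and proximal tubule-like cells the least, at 163 CPM. IGFBP4 was highest in the 1415 podocyte-like cells, at 324 CPM (315 to 333), before stromal-like cells at 182 CPM (175 to 189). Proximal tubule-like cells had 59.5 CPM of IGFBP4 and neuronal-like cells 22.8 CPM. IGFBP7 was highest in proximal tubule-like cells, at 1116 CPM (1101 to 1131), followed by podocyte-like cells at 805 and stromal-like cells at 416 CPM. The named class with the highest level was the same in both libraries for 8 of the 9 members, and IGF1R was highest in neuronal-like cells in Ctrl and in podocyte-like cells, at 81.3 CPM, with TNFα. Within each library none of these highest classes changed under the other cell filters, the finer clustering or the clustering without alignment.

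**Figure D4:**
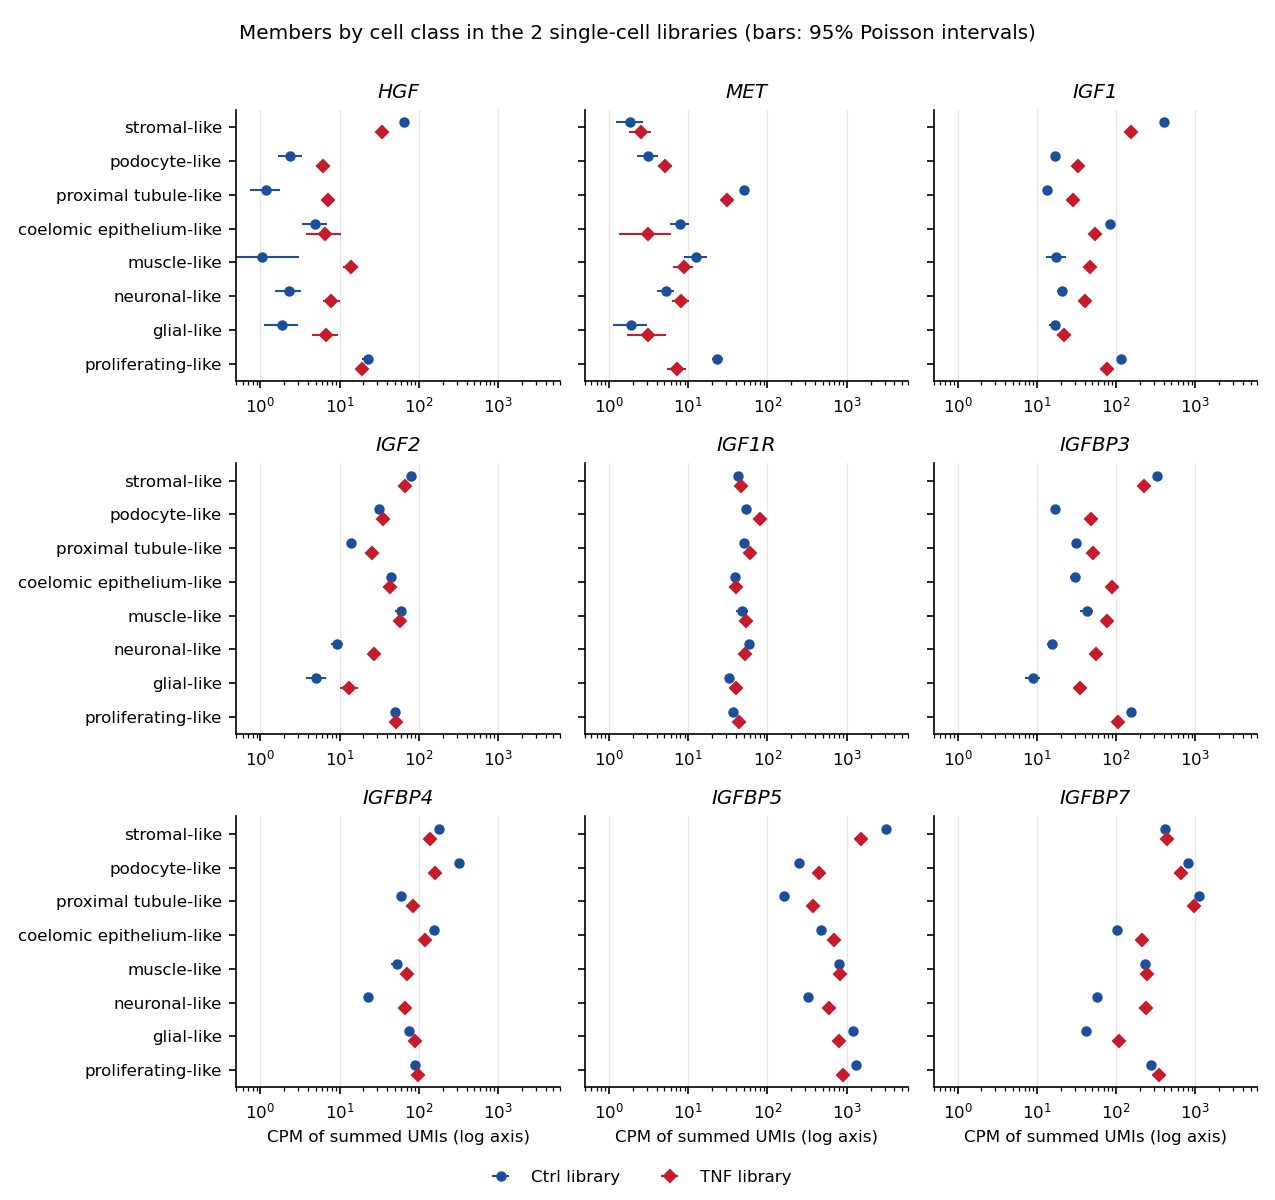
CPM of each member in 8 named cell classes on a log axis, with Ctrl as blue circles and TNFα as red diamonds and bars for exact 95% Poisson intervals. In Ctrl, HGF, IGF1, IGFBP3 and IGFBP5 peak in stromal-like cells, MET and IGFBP7 in proximal tubule-like cells and IGFBP4 in podocyte-like cells.

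Genes that cut or activate these proteins were also unequal between classes. PAPPA stood at 101 CPM (96.2 to 107) in podocyte-like cells, the same class as IGFBP4, beside 8.46 CPM in stromal-like and 8.70 CPM in proximal tubule-like cells. The HGF-activating protease HPN reached 193 CPM (187 to 199) and ST14 18.1 CPM (16.3 to 20.2) in proximal tubule-like cells, where MET was highest, against 1.51 and 0.215 CPM in stromal-like cells. Their inhibitors SPINT1 and SPINT2 had 80.6 and 484 CPM in proximal tubule-like cells, and SPINT2 reached 1105 CPM in podocyte-like cells. IRS1 had 17.1 CPM (15 to 19.5) in stromal-like and 17.7 CPM (13.2 to 23.3) in muscle-like cells, which overlapped. IGFBPL1 lay mainly in neuronal-like cells, at 295 CPM (286 to 304).

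Between the single-cell libraries the members differed in other ways than in bulk. Over all cells HGF had 13.1 CPM in Ctrl and 13.3 CPM with TNFα, a ratio of 1.01 (0.934 to 1.09), beside ratios of 3.61 and 3.10 in isolated spheroids at 24 h and 48 h. The preparations differ, whole wells against isolated spheroids, as do the day and the method, and which of these matters cannot be told apart. IGFBP4 had a ratio of 0.924 (0.90 to 0.949) and MET of 0.635 (0.586 to 0.687). The remaining members ranged from 0.720 for IGF1 to 1.24 for IGF2, and PAPPA had 1.83 (1.73 to 1.93). The makeup of the libraries differed too. Podocyte-like cells were 11.9% of Ctrl and 20.1% of TNFα cells, and proximal tubule-like cells 10.65% and 15.5%. Muscle-like cells were 2.44% and 7.47%, while stromal-like cells were 21.6% and 18.2% and neuronal-like cells 14.5% and 10.4%. The part of these shares in the ratios over all cells was not tested.

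Within classes, HGF in stromal-like cells was 65.4 CPM in Ctrl and 34.3 CPM with TNFα, a ratio of 0.525 (0.471 to 0.585). In podocyte-like and proximal tubule-like cells it was 6.12 and 7.14 CPM with TNFα, ratios of 2.55 (1.74 to 3.84) and 6.08 (3.83 to 10.1). The summed stromal markers moved likewise. They went from 16.0% to 34.8% of their stromal level in podocyte-like cells and from 4.70% to 21.7% in proximal tubule-like cells. In podocyte-like cells HGF with TNFα was at 17.8% of its stromal level, below that marker share. In proximal tubule-like cells HGF was at 20.8%, close to the 21.7% of the markers. Whether HGF in these 2 classes is background was not tested. IGFBP4 had ratios of 0.495 (0.473 to 0.518) in podocyte-like, 0.770 (0.727 to 0.816) in stromal-like and 1.43 (1.32 to 1.55) in proximal tubule-like cells. MET in proximal tubule-like cells had a ratio of 0.617 (0.552 to 0.688).

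The markers that name these classes fell along with those genes. From Ctrl to TNFα the summed podocyte markers went from 8199 to 4430 CPM in podocyte-like cells, where IGFBP4 was lower. The proximal tubule markers went from 1400.5 to 909 CPM in proximal tubule-like cells, where MET was lower, and the stromal markers from 7317 to 4869 CPM in stromal-like cells, where HGF and IGFBP4 were lower. In proximal tubule-like cells the markers of other classes were higher with TNFα, from 158 to 551 CPM for podocyte markers and from 344 to 1054 CPM for stromal markers, beside the higher IGFBP4 there. The part of these shifts in the ratios was not tested.

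These ratios by class rest on how the libraries were aligned. Without alignment the TNFα library held 1335 podocyte-like cells in place of 4655 and 702 proximal tubule-like cells in place of 3595, and 12 of 27 ratios over 9 members and 3 classes changed direction. Of the 9 ratios of HGF, IGFBP4 and MET, 3 turned, and these genes are given by class because HGF and IGFBP4 passed the bulk test and MET is the HGF receptor. With the cells of highest doublet score left out, 25 of 54 levels by class moved by more than their counting interval. In Ctrl, IGF1 was then 6.73 CPM in place of 17.1 in podocyte-like and 8.62 in place of 13.5 in proximal tubule-like cells. HGF in podocyte-like cells was 0.656 CPM in Ctrl and 5.30 with TNFα, a ratio of 8.08 in place of 2.55. That Ctrl value rests on fewer than the 35 HGF UMIs of all Ctrl podocyte-like cells. Without alignment 34 of the 54 levels moved.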

How the data were processed

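Human kidney organoids were profiled in 13 bulk RNA libraries (set 1, set 2 and a TNFα set) and 2 single-cell libraries, grouped by their labels. A further single-cell sample (D25 NLW50 Ctrl) was not analysed here.

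Bulk tables: paired-end reads were mapped by the authors to GRCh38 with STAR 2.7.8a, counted reads per gene with HTSeq (0.11 in the submitters' processing notes), normalized with voom and filtered genes, and deposited log2 values. No source used here gives the strand setting, so antisense overlaps cannot be separated. The values equal log2(CPM + 1) with 0.5 added to each count, and whole reads were recovered for 100% of them (at most 1.68e-08 from a whole number). Library totals were 19073609 to 59246286 reads. Single-cell UMI counts were deposited by the authors unnormalized. The matrix header names Cell Ranger 6.0.1, the processing notes 2.1.1, and both hg19 and hg38 are listed, so no coordinates were taken from the matrices. Positions are those of GENCODE 44, which matched 19905, 27240 and 21047 gene names in set 1, set 2 and the TNFα set.

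Set 2 was fitted with limma 3.58.1 (R 4.3.3; eBayes with a trend) with 1 mean per day, and the TNFα set with time and treatment. P-values were Benjamini-Hochberg adjusted over all genes of a table, and genes were called at 0.05. Set 1 and the single TNFα times have no replicates and were not tested. Alternatives were edgeR 4.0.16 and DESeq2 1.42.0 on recovered reads, median centring, genes with a mean of at least 1, log2(CPM + 0.1), a replicate block, treatment without time, and each set 2 library left out.

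Each cell with more than 500 genes was normalized to 10000 UMIs. From 2000 variable genes of each library, the reported genes left out, 30 components were computed, aligned with a Harmony algorithm and clustered (leidenalg 0.10.2, 20 neighbours, resolution 0.25). A cluster was named from at least 3 markers with at least 20 CPM and a log2 fold of at least 1 with 10 CPM added. A name was withdrawn where the 10 genes of largest fold held more markers of another list, or none of its own in a cluster of low UMI counts, which left unnamed 1 cluster with 7 proliferating and 1 with 4 endothelial markers. Doublets were kept because the automatic Scrublet threshold (scanpy 1.11.5) marked no cell. An alternative chosen after seeing the data left out the cells with the highest doublet scores, 9.52% of Ctrl and 18.5% of TNFα cells, and another used cells with at least 1514 UMIs. Intervals are exact and 95%.

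The members and gene lists were chosen with earlier results of these data known. From the wider list, up to 5 called genes per direction with the largest change are named, and the 3 nearest genes per member by RMS distance among genes with a mean of at least 1 in each table. The fits, clustering and intervals were tested on simulated data.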

Additional observations from a re-analysis of the deposited data

Results flagged for a closer look

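IGF2 with TNFα differed in direction between the times, at 0.14 above VC at 24 h and -0.15 at 48 h on the log2 scale. Each value rests on 1 library per arm, and the difference between the times was not tested.

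In single cells, the TNFα to Ctrl ratio of HGF was 0.525 in stromal-like cells but 2.55 in those with podocyte markers and 6.08 in those with proximal tubule markers. For IGFBP4 it was 0.770 in stromal-like cells but 1.43 where proximal tubule markers were high. The intervals lay on opposite sides of 1, but with 1 library per condition none of these differences between classes was tested. Without alignment of the libraries these HGF ratios were 0.607, 0.786 and 1.12 in the same order, and the IGFBP4 ratios 0.841 and 1.24. With the cells of highest doublet score left out, the HGF ratio in podocyte-like cells was 8.08. Its Ctrl side rests on few counts, since HGF had 35 UMIs in podocyte-like cells before that step. The summed stromal markers in podocyte-like cells were also higher with TNFα, at 1170 CPM in Ctrl and 1693 CPM with TNFα. In proximal tubule-like cells they were at 344 and 1054 CPM. Whether HGF in these classes is background was not tested.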

How the results depend on the processing

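The calls of HGF and IGFBP4 with TNFα were kept in all 6 alternatives, where HGF ranged from 1.44 to 1.78 (adjusted p from 1.03e-29 to 0.00544) and IGFBP4 from -0.44 to -0.40 (adjusted p from 1.79e-07 to 0.0388). With a replicate block for the set 2 numbers, 5 members were higher and 3 lower, the same calls as without it, and the wider list had 7 higher and 12 lower. Over all genes the block gave 3149 higher and 2907 lower in place of 2778 and 2303. The same-numbered libraries correlated at 0.142, 0.0753 and 0.271 between days in their deviations from the day means. With 2 libraries a day, these values cannot decide whether libraries of the same number share an origin. Leaving out 1 set 2 library gave 1 to 3 members lower, 1 to 6 wider genes higher and 4 to 10 lower, and 1398 to 2964 genes higher over the table. With TNFα, 2 members were lower with median centring, with the filter on low genes and with log2(CPM + 0.1), since MET was added. Without the time term the wider list had 3 higher and 2 lower, and 637 genes were higher and 673 lower over the table.

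Changes near 0 turned direction. MST1R from D21 to D29 was -0.058 with median centring. CBL from D21 to D29 was 0.014 with edgeR, 0.017 with DESeq2 and between -0.064 without set 2 D29 replicate 1 and 0.041 without replicate 2, and with TNFα it was 0.0128 with edgeR and 0.0106 with DESeq2. IGF2 with TNFα was 0.0338 with edgeR, 0.0324 with DESeq2 and 0.0045 with median centring. Without alignment the TNFα to Ctrl ratio turned for HGF in podocyte-like cells (0.786) and for MET in stromal-like (0.429) and podocyte-like cells (0.959). The cause was not tested in any of these. HGF at D21 rests on 9 and 17 reads, which limits its fold change.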

Other observations

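IGF2 and its neighbour on chromosome 11, the noncoding RNA H19, stood close together in the day sets and far apart in the TNFα set, compared within each library on the log2(CPM + 1) scale. IGF2 minus H19 lay between -0.39 and 0.13 in the 9 libraries of sets 1 and 2, and between -3.78 and -3.70 in the 4 libraries of the TNFα set, vehicle included. In the latter H19 read 10.33 to 10.61 and IGF2 6.55 to 6.87. In the single-cell Ctrl library IGF2 had 33.6 CPM and H19 374 CPM over all cells. The labels name the same line for all bulk libraries, and the cause was not tested.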
